A study of Mus musculus with 6 samples.

Results

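The genes described here are 8 genes for nuclear regulators that mark kidney tubule identity or its loss: Hnf4a, Pax8, Pax2, Lhx1, Sox9, Sox4, Klf5 and Cited1. They were taken from the count table by symbol, by a rule that uses no measured value, although the set was proposed with earlier results of these data known. All 8 were present among 26971 features, and 7 of them were among the 14274 features with enough counts to be tested, the exception being Cited1. The libraries came from kidney cortex of male C57BL/6 mice, 3 from IRI kidneys with renal congestion and 3 from IRI kidneys without it, all taken at day 1 after surgery. IRI is read here as ischaemia-reperfusion injury, its usual meaning in kidney studies. The treatment of the congested group is labelled IRI with IVCC, and the titles of the other group carry the letters CLK. Neither abbreviation is expanded in the labels. Both groups share the IRI, no uninjured kidney is analysed here, and ages are not given in the labels. The replicates are numbered 1 to 3 in both groups, without a statement of what a number marks or that the samples came from separate animals. The p-values therefore measure only the spread between these samples, which may be technical.

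Hnf4a encodes a nuclear receptor that drives the transporter and metabolic genes of the mature proximal tubule. Pax2, Pax8 and Lhx1 set up the nephric lineage in the embryo, where they act from the nephric duct to the renal vesicle, and Pax8 stays on in adult tubule epithelium. Sox9 is switched on in surviving proximal tubule cells after injury, Sox4 is a related factor of nephron development, Klf5 is a zinc-finger factor of collecting duct and urothelial epithelium, and Cited1 is a cofactor that marks self-renewing nephron progenitors.

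Libraries held 10865860 to 14350425 counts. Levels are given as CPM, the counts of a gene relative to the counts of all tested genes in its library. They are scaled by the trimmed mean of M-values (TMM), which corrects for differences in library composition. Differences are log2 ratios of congested IRI over IRI from edgeR's quasi-likelihood test, with p-values adjusted over all 14274 tested genes by the Benjamini-Hochberg method. In tissue RNA, fewer cells of a type and less RNA per cell cannot be told apart.

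None of the 7 tested regulators was called different between congested IRI and IRI kidneys, at an adjusted p threshold of 0.05. The fitted log2 difference was above 0 for 7 of 7, with a median of 0.33, and across all tested genes 49.6% lay above 0 with a median of -0.0046. The values ran from 0.05 for Pax2 to 1.11 for Sox4, and all 7 stayed above 0 under each scaling run. Leaving out libraries changed the sign for Pax2 and Sox9. In the pair numbered 3 the difference was below 0 for Hnf4a, Pax2, Sox4, Lhx1 and Klf5. The 7 were measured in the same 6 libraries, so their signs are not independent. Every one of the 8 genes had congested IRI and IRI libraries that overlapped in CPM. The same edgeR fit called 0% of all genes, 0 of 14274, although 285 had p under 0.05 before adjustment. Neither DESeq2 nor limma-voom called any gene, and the number with p under 0.05 before adjustment was 354 in DESeq2 and 276 in limma-voom. Full separation of the groups, with all 3 congested IRI libraries above all 3 IRI libraries, was seen for 3.42% of genes, and the opposite for 3.07%, and for 0 of the 7 regulators in either direction.

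**Figure D1:**
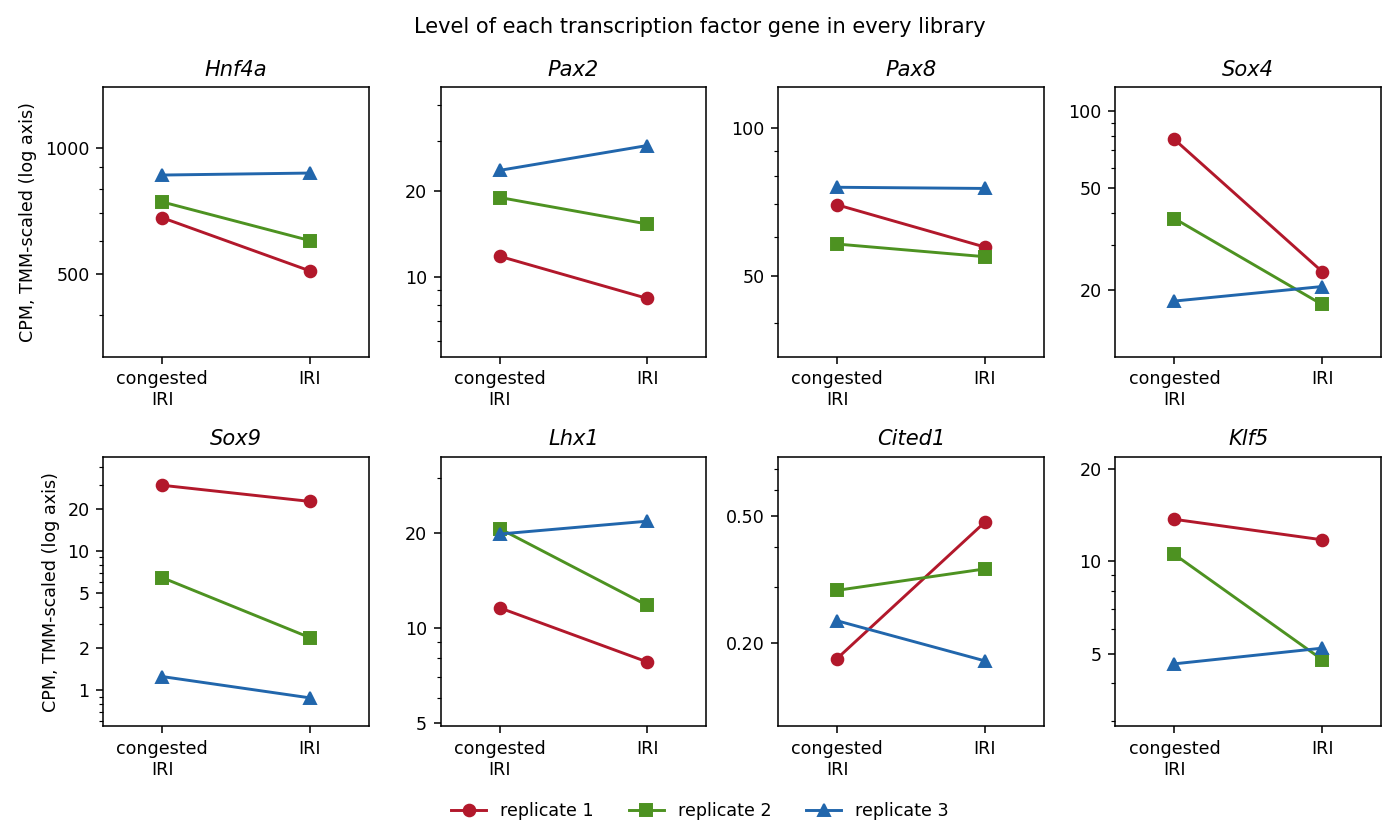
CPM of each of the 8 genes (log axis, 1 panel per gene) in the 3 congested IRI libraries on the left and the 3 IRI libraries on the right, with lines joining libraries of the same replicate number. Both libraries numbered 1 (red circles) sit highest for Sox9 and Klf5 and lowest for Pax2 and Lhx1, and Sox4 is high in congested IRI libraries 1 and 2 only.

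Among the regulators of mature tubule identity, Hnf4a had 682, 744 and 862 CPM in congested IRI libraries 1, 2 and 3, against 509.9, 602 and 872 CPM in IRI libraries 1, 2 and 3. The lowest levels of each group were those of the libraries numbered 1, and the highest level of all was in an IRI library. Hnf4a averaged 762.7 ± 91.4 CPM in congested IRI kidneys and 661 ± 188 CPM in IRI kidneys (SD, n = 3 each). The log2 difference was 0.21 with a standard error of 0.28 and a 95% interval from -0.44 to 0.85 (edgeR, adjusted p = 0.933), and it was 0.056 without IRI library 1 and 0.46 without IRI library 3. Between libraries of the same number it was 0.42, 0.31 and -0.02 in numbers 1, 2 and 3. The gene lies on chromosome 2 at 163506808 to 163572910 on the plus strand of GRCm38 and is protein-coding. It is transcribed from 2 annotated start regions, and the gene-level counts cannot separate their transcripts. In textbook accounts the upstream start is the one used in pancreas and the downstream start the one used in adult liver and kidney.

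The RefSeq windows around both starts (GRCm38.p6, 250 bases before to 50 bases after the start, gene strand, plus) are printed because the Hnf4a level rests on them together. Capitals mark matches to CCAAT, a common promoter motif, or its reverse complement ATTGG. The upstream window is chr2:163506607-163506906 and the downstream window is chr2:163546905-163547204.
Hnf4a upstream start: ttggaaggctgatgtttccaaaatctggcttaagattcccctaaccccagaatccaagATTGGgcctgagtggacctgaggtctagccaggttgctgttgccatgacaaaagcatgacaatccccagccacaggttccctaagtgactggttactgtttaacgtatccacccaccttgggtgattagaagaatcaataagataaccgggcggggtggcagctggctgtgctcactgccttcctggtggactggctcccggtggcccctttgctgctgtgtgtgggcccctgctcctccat
Hnf4a downstream start: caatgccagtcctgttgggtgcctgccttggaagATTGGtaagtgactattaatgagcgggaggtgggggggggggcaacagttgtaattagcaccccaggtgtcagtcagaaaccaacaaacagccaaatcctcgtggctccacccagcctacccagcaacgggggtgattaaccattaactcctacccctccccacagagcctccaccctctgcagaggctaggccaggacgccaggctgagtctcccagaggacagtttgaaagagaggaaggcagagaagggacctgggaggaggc
Each window held 1 match, at bases -192 to -188 from the upstream start and -216 to -212 from the downstream start. On both strands, 37.4% of 32851 mouse promoter windows of the same length held this motif.

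Pax8 was the steadiest of the 8 genes, with a 1.39-fold range over all 6 libraries. It had 69.7, 58.0 and 75.7 CPM in congested IRI libraries 1, 2 and 3, against 57.2, 54.6 and 75.3 CPM in IRI libraries 1, 2 and 3. In both groups the library numbered 2 was lowest and the library numbered 3 highest. The log2 difference was 0.12 with a standard error of 0.22 and a 95% interval from -0.38 to 0.62 (edgeR, adjusted p = 0.943). Congested IRI was above IRI in all 3 same-numbered pairs, by 0.29, 0.09 and 0.01. The gene lies on chromosome 2 at 24420560 to 24475599 on the minus strand, and 367 of its exon bases overlap Gm13415 on the opposite strand. Gm13415 had 0, 2 and 1 counts in congested IRI libraries and 2, 0 and 5 counts in IRI libraries. How strand was used in the counting is not given in the sources used here.

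Pax2, the related paired-box factor, had 11.8, 19.0 and 23.7 CPM in congested IRI libraries 1, 2 and 3, against 8.43, 15.4 and 29.0 CPM in IRI libraries 1, 2 and 3. The libraries numbered 1 were lowest and the IRI library numbered 3 was highest, so the IRI range enclosed the congested IRI range. Its log2 difference was 0.05 with a standard error of 0.46 and a 95% interval from -1.02 to 1.13 (edgeR, adjusted p = 0.983), and it changed sign without either IRI library 1 (-0.28) or IRI library 2 (-0.04), or without congested IRI library 3 (-0.18). Between libraries of the same number it was 0.48, 0.31 and -0.29 in numbers 1, 2 and 3. The gene lies on chromosome 19 at 44756045 to 44837871 on the plus strand. Its annotated antisense partners share no exon bases with it.

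Lhx1, a LIM-homeobox factor of early nephron patterning, had its lowest levels in the same libraries as Pax2. It had 11.6, 20.6 and 19.9 CPM in congested IRI libraries 1, 2 and 3, against 7.79, 11.8 and 21.8 CPM in IRI libraries 1, 2 and 3. Both libraries numbered 1 were again lower than the other 4, and the groups overlapped. The log2 difference was 0.33 with a standard error of 0.41 and a 95% interval from -0.62 to 1.29 (edgeR, adjusted p = 0.933), and it was 0.055 without IRI library 1 and 0.83 without IRI library 3. Between libraries of the same number it was 0.56, 0.80 and -0.13. The gene lies on chromosome 11 at 84518284 to 84525535 on the minus strand.

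Sox9, the injury-induced factor of surviving proximal tubule cells, spanned a 33.6-fold range over the 6 libraries, the widest of the 8 genes. It had 29.7, 6.44 and 1.26 CPM in congested IRI libraries 1, 2 and 3, against 22.7, 2.39 and 0.883 CPM in IRI libraries 1, 2 and 3. In both groups the library numbered 1 was far above the library numbered 2, which was above the library numbered 3, so the groups overlapped almost completely. Sox9 averaged 12.5 ± 15.2 CPM in congested IRI kidneys and 8.67 ± 12.2 CPM in IRI kidneys (SD, n = 3 each). Without a term for the number, the log2 difference was 0.51 with a standard error of 1.29 and a 95% interval from -2.51 to 3.53 (edgeR, adjusted p = 0.956). That estimate was 2.92 without IRI library 1, -1.18 without congested IRI library 1 and -0.02 without IRI library 3. Between libraries of the same number, congested IRI was higher in all 3 pairs, by 0.38, 1.37 and 0.44. The pair numbered 3 rests on 16 counts in congested IRI and 10 in IRI. Congested IRI library 3 was below IRI library 2, so this result depends on the numbers being a true pairing. A fit that blocked on the number put the difference at 0.76 with a standard error of 0.29 and a 95% interval from 0.10 to 1.43 (edgeR, adjusted p = 0.577). The block narrowed the interval without moving the gene past the threshold. Sox9 lies on chromosome 11 at 112782224 to 112787760 on the plus strand.

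Higher levels in congested IRI than in IRI in all 3 same-numbered pairs were seen for 2 of the 7 tested regulators, Pax8 and Sox9, and for 13.1% of all tested genes. In the fit with the block, 2 of the 7, Sox4 and Sox9, had an unadjusted p under 0.05, against 7.06% of all tested genes. After adjustment that edgeR fit called 0 genes, and 1008 had p under 0.05 before adjustment. DESeq2 with the block called 8 genes, none of them among the 7 regulators, and 975 had p under 0.05 before adjustment.

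Sox4, a high-mobility-group factor of the developing nephron, had the largest fitted difference of the 7. It had 77.3, 37.9 and 18.05 CPM in congested IRI libraries 1, 2 and 3, against 23.5, 17.5 and 20.6 CPM in IRI libraries 1, 2 and 3. Congested IRI libraries 1 and 2 lay above every IRI library, and congested IRI library 3 lay within the IRI range. Sox4 averaged 44.4 ± 30.1 CPM in congested IRI kidneys and 20.5 ± 3.02 CPM in IRI kidneys (SD, n = 3 each). The log2 difference was 1.11, a 2.16-fold ratio, with a standard error of 0.48 and a 95% interval from -0.01 to 2.23 (edgeR, adjusted p = 0.933). Between libraries of the same number it was 1.71, 1.11 and -0.19. Blocked on the number it was 0.90 with a standard error of 0.34 and a 95% interval from 0.12 to 1.68 (edgeR, adjusted p = 0.577). The estimate fell to 0.44 without congested IRI library 1, against 1.49 without congested IRI library 3.

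The Sox4 gene lies on chromosome 13 at 28948919 to 28953713 on the minus strand, with 4795 exon bases. Of these, 2616 overlap exons of the long noncoding RNA Gm26735 on the opposite strand, which is not analysed here. The strand setting of the counting and its rule for reads that overlap several genes are not known here. Reads over the shared bases may have been added from Gm26735 or left out of Sox4, so Sox4 levels are uncertain. The RefSeq window around the Sox4 start (GRCm38.p6, chr13:28953650-28953949, gene strand, minus) is printed because this gene had the largest difference. Capitals mark CCAAT or its reverse complement ATTGG.
Sox4 start: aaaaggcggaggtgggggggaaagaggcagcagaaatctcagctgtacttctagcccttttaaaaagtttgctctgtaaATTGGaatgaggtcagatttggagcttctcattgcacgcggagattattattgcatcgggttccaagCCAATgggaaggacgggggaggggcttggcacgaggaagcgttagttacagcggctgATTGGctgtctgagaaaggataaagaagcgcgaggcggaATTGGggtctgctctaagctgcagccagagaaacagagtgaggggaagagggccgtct
The window held 4 matches, the nearest to the start at bases -8 to -4 and the farthest at -171 to -167. The farthest overlapped a match to CATTCC, the motif bound by TEAD factors, on the same strand. Over all windows, 37.4% held CCAAT and 14.7% held CATTCC on either strand. Among the 6 of the 8 genes with a RefSeq window, 5 held CCAAT in at least 1 of their windows. The binding motif of AP-1, TGANTCA, and the HNF4-type repeat CAAAGTCC were in 7.81% and 1.42% of all windows, and 0 of the 6 genes with a window had either.

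Neutrophil markers and the myeloid gene Lyz2 were, like Sox4, highest in congested IRI library 1. The 7 macrophage markers summed to 274, 88.1 and 102 CPM in congested IRI libraries 1, 2 and 3, against 97.1, 89.0 and 105 CPM in IRI libraries 1, 2 and 3. The 5 neutrophil markers summed to 215, 14.7 and 7.38 CPM in congested IRI libraries, against 72.5, 8.54 and 4.86 CPM in IRI libraries. Both sums were highest in congested IRI library 1, and neither was higher in congested IRI library 2 than in every IRI library. The macrophage sum was highest there through Lyz2, with 3 of the 7 markers at their highest in that library. The other 6 macrophage markers, summed without Lyz2 after the data were seen, gave 77.2, 62.5 and 88.3 CPM in congested IRI libraries 1, 2 and 3, against 55.1, 74.5 and 94.2 CPM in IRI libraries 1, 2 and 3. The 6 lymphocyte markers summed to 0.471 to 1.17 CPM in congested IRI libraries and 0.353 to 0.477 CPM in IRI libraries, and none passed the filter on low counts. The part of leukocytes in the Sox4 result was not tested.

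**Figure D2:**
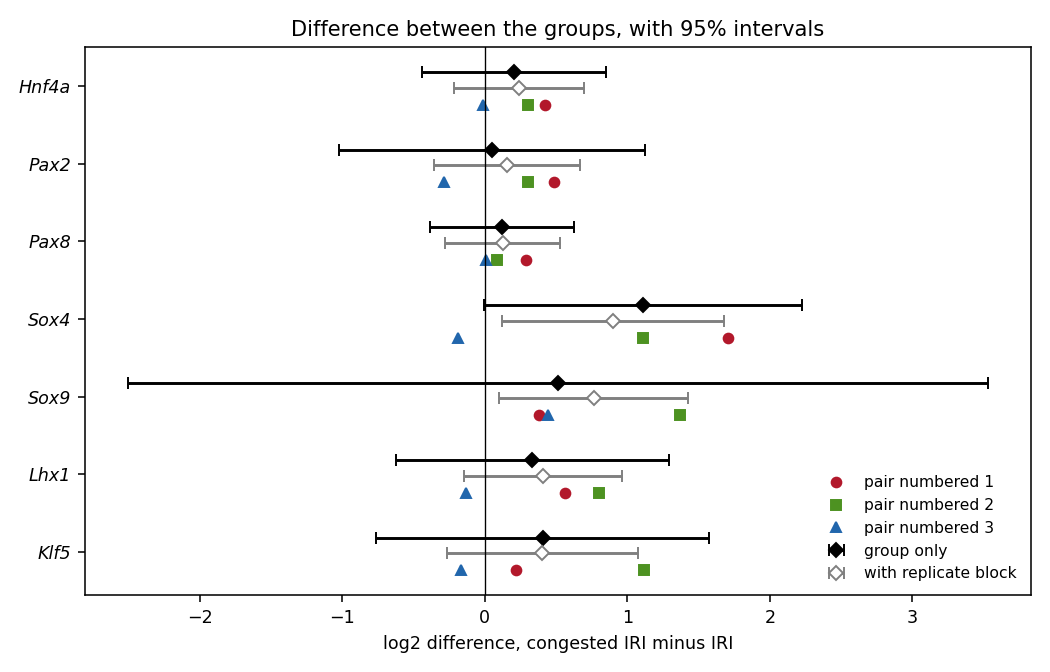
Log2 difference, congested IRI minus IRI, for the 7 tested genes: the fit with group only (black diamonds) and with the replicate block (open diamonds), both with 95% intervals, and the 3 same-numbered pairs (coloured points). The interval for Sox9 runs from -2.51 to 3.53 without the block and from 0.10 to 1.43 with it, and the pair numbered 3 lies below 0 for Hnf4a, Pax2, Sox4, Lhx1 and Klf5.

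Klf5 had 13.7, 10.5 and 4.63 CPM in congested IRI libraries 1, 2 and 3, against 11.8, 4.78 and 5.21 CPM in IRI libraries 1, 2 and 3. Both libraries numbered 1 and congested IRI library 2 were high, and the remaining 3 libraries lay between 4.63 and 5.21 CPM. The log2 difference was 0.41 with a standard error of 0.50 and a 95% interval from -0.76 to 1.57 (edgeR, adjusted p = 0.933), and it was 0.06 without congested IRI library 1 and 0.95 without IRI library 1. Between libraries of the same number it was 0.22, 1.11 and -0.16. The gene lies on chromosome 14 at 99298691 to 99315036 on the plus strand. The 5 urothelium markers, uroplakin genes and Krt5, summed to 5.65, 172 and 22.4 CPM in congested IRI libraries 1, 2 and 3, against 49.1, 35.4 and 30.2 CPM in IRI libraries 1, 2 and 3. Congested IRI library 2 thus held the highest urothelial sum, and congested IRI library 1, where Klf5 was highest, held the lowest. The 8 collecting duct markers summed to 352, 666 and 960.2 CPM in congested IRI libraries, against 593, 1273 and 1038 CPM in IRI libraries. The libraries numbered 1 were lowest in that sum, the reverse of Klf5, and both were below every other library for 5 of the 8 markers. Atp6v1g3 and Fxyd4 went the other way, highest in number 1 within each group. The part of these epithelia in the Klf5 values was not tested.

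Cited1 was close to the limit of detection. It had 2, 4 and 3 counts in congested IRI libraries 1, 2 and 3, against 6, 4 and 2 counts in IRI libraries 1, 2 and 3, which is 0.177 to 0.477 CPM over all 6 libraries. Its sums of 9 counts in congested IRI and 12 counts in IRI left it under the filter on low counts. In the edgeR fit with no filter, 0 of the 8 regulators were called between congested IRI and IRI, and for Cited1 a difference was not detectable at this depth. The gene lies on chromosome X at 102247381 to 102252181 on the minus strand. Six2, which also marks nephron progenitors, was at 0 CPM in 5 of 6 libraries and at 0.0732 CPM in congested IRI library 2.

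**Figure D3:**
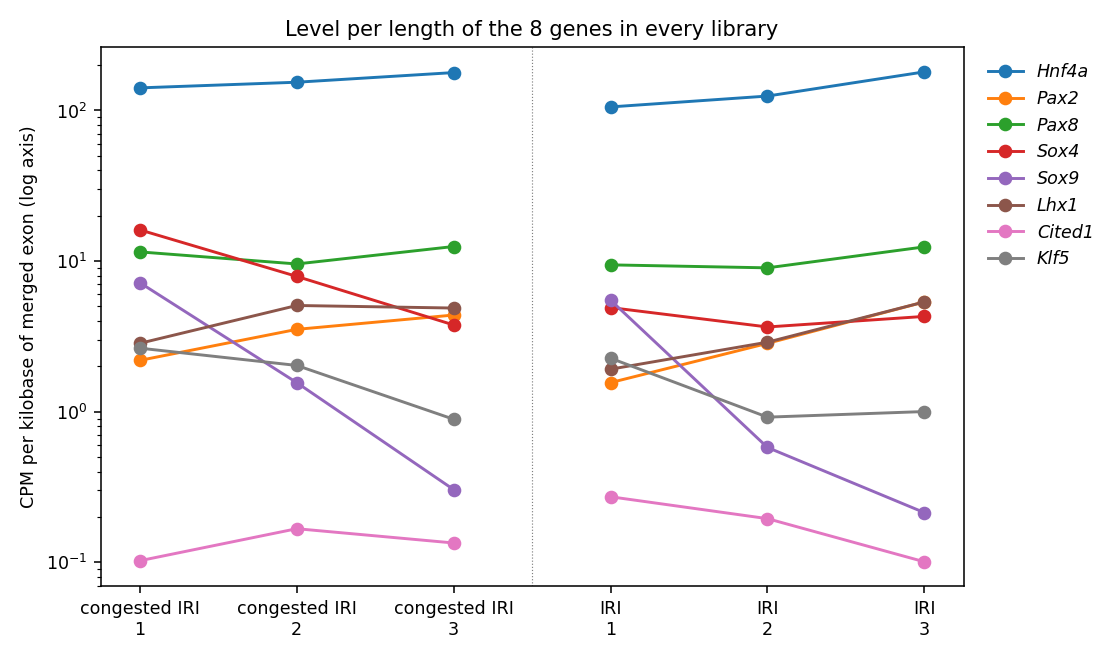
CPM per kilobase of merged exon (log axis) for the 8 genes in every library, with the 3 congested IRI libraries on the left and the 3 IRI libraries on the right. Lines only join the points of a gene. Hnf4a lies above the other genes in all 6 libraries, Cited1 lies lowest in all 6, and Sox9 changes its place in the order most.

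To compare levels between genes, CPM was divided by the length of the merged exons in kilobases. Hnf4a was the highest of the 8 on this per-length scale in all 6 libraries, at 105.6 to 181 CPM per kilobase, and its lowest library exceeded the highest value of any other member. Pax8 had a median of 10.5 CPM per kilobase and ranked behind Hnf4a in 5 of 6 libraries. The exception was congested IRI library 1, where Sox4 reached 16.1 CPM per kilobase, against 11.5 for Pax8. This exception depends on the length used: Pax8 has 6061 merged exon bases but 3386 in its longest transcript, and Sox4 has 4795 in both. Other places in the order can depend on it too. The Sox4 values on this scale also carry the doubt about the exon bases it shares with Gm26735. The per-length medians of the others were 4.60 for Sox4, 3.88 for Lhx1, 3.18 for Pax2, 1.51 for Klf5, 1.07 for Sox9 and 0.151 for Cited1. From Pax8 down, the range over libraries of each gene overlapped that of its neighbour in the order. Pax2 and Lhx1 were almost equal in IRI library 3, with 5.353 and 5.355 CPM per kilobase, but had 3.52 and 5.07 in congested IRI library 2. Sox9 ranked 4 in congested IRI library 1 and 3 in IRI library 1, and 7 of 8 in the other 4 libraries. Cited1 was the lowest on this scale in all 6.

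Sox9 and Pax2 differed between the replicate numbers. In an F test of the number terms in edgeR, with group in the fit, these 2 of the 7 tested regulators were called, against 8.01% of all tested genes. Sox9 was 6.35-fold higher in the libraries numbered 1 than in those numbered 2, and 25.0-fold higher than in those numbered 3 (edgeR, adjusted p = 0.00180). Pax2 went the other way: it was 1.70-fold higher in the libraries numbered 2, and 2.63-fold higher in those numbered 3, than in those numbered 1 (edgeR, adjusted p = 0.0437). Klf5 and Lhx1 did not pass, with adjusted p = 0.0975 for Klf5 and 0.0984 for Lhx1 in edgeR. Neither did Sox4, Hnf4a and Pax8, with edgeR adjusted p = 0.208 for Sox4, 0.309 for Hnf4a and 0.411 for Pax8.

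Both libraries numbered 1 lay above the other 4 for 2 of the 7, Sox9 and Klf5, which held for 18.4% of all tested genes. They lay below the other 4 for 2 of the 7, Pax2 and Lhx1, which held for 19.8% of all tested genes. The count of regulators called between numbers was 7 without congested IRI library 3 and 5 without IRI library 3, when all genes called numbered 7841 and 5207. It was 1 of 7 with number 1 left out of both groups, when 159 genes were called. The labels do not say whether a number stands for a surgery day, a litter or nothing shared.

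Many of the listed injury genes of the tubule moved with Sox9 across the numbers. That list and the mature proximal tubule list were chosen with earlier results known, among them that the libraries numbered 1 stood apart. Of 15 genes of injured or dedifferentiated tubule, 10 were called between numbers, all 10 higher in the libraries numbered 1. Over all tested genes, 8.01% were called. Their sum was 12050 to 67281 CPM in congested IRI libraries and 7164 to 49819 CPM in IRI libraries, led by Spp1. Cd44, a hyaluronan receptor of injured epithelium and leukocytes, had 33.0, 11.6 and 3.30 CPM in congested IRI libraries 1, 2 and 3, against 11.7, 5.64 and 1.68 CPM in IRI libraries 1, 2 and 3. It was called between numbers (edgeR, adjusted p = 0.00362), as was Spp1 (adjusted p = 0.00353). Of 16 genes of the mature proximal tubule, 9 were called, beside the same 8.01%, all 9 lower in the libraries numbered 1. Aqp1, a water channel, and Slc34a1, a phosphate transporter, had the smallest p-values of these in edgeR, with adjusted p = 0.00264 for Aqp1 and 0.00729 for Slc34a1. Hnf4a was not among the genes called between numbers. The part of injury severity in the Sox9 values was not tested.

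Against congestion, the same lists held no called gene. Of the 15 injury genes, 6 had a log2 difference above 0, with a median of -0.08, and of the 16 mature proximal tubule genes, 9 did, with a median of 0.01. Both medians changed sign with the settings: the injury median was 0.07 on total counts, 0.17 with the replicate block and 0.67 without IRI library 1, and the proximal tubule median was -0.07 in limma-voom and -0.29 without IRI library 1. Cd44 differed by 1.32 and Krt7, a keratin, by -0.38 on the log2 scale, and the transporter gene Slc5a12 by 0.79 and the gluconeogenic gene Fbp1 by -0.34. The 8 nuclear regulators of the mature proximal tubule had 6 above 0 and a median of 0.31. Ppara, the receptor that controls fatty acid oxidation, had the smallest p of these: 57.9, 49.6 and 51.2 CPM in congested IRI libraries 1, 2 and 3, against 21.6, 19.1 and 55.1 CPM in IRI libraries 1, 2 and 3 (edgeR, log2 difference 0.73, adjusted p = 0.933). IRI library 3 lay within the congested IRI range, so the groups overlapped. Hnf4g, the paralog of Hnf4a, differed by 0.53 on the log2 scale.

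The developmental genes around Pax2, Lhx1 and Cited1 gave the following counts. Of 10 nephron progenitor genes, 6 were tested, 6 had a log2 difference above 0 and the median was 0.14. Sall1, a zinc-finger factor of progenitors, had the smallest p, with a log2 difference of 0.33, and Osr1 differed by 0.31. Itga8, an integrin, was 1 of the 6 tested and the only one called between numbers, beside 8.01% of all tested genes. Its libraries numbered 1 were lowest (edgeR, adjusted p = 0.0165). Of 14 genes of renal vesicle patterning, 11 were tested, 5 were above 0 and the median log2 difference was -0.23. Hes1, a Notch target, differed by -0.27 and Ccnd1, cyclin D1, by 0.55 on the log2 scale. Of the 11, 3 were called between numbers, beside 8.01% of all tested genes, all 3 lower in the libraries numbered 1. Irx1, a homeobox factor of the intermediate nephron, was the first of these by p (edgeR, adjusted p = 0.0101). Of 14 transcription factors of distal nephron and collecting duct, 6 were above 0 and the median log2 difference was -0.15. Elf5 differed by -0.45 and Tfcp2l1 by 0.29. Prox1 and Esrrb were the 2 genes of the 14 called between numbers, beside 8.01% of all tested genes. Without IRI library 3 the medians of the patterning list and the distal list were 0.25 and 0.15, and without congested IRI library 1 the distal median was 0.09.

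Among 13 paralogs of the regulators, 8 were tested, 0 were called between congested IRI and IRI, and 5 had a log2 difference above 0, with a median of 0.23. Klf2, a flow-responsive endothelial factor, had 7.54, 7.83 and 8.24 CPM in congested IRI libraries 1, 2 and 3, against 16.1, 11.7 and 10.5 CPM in IRI libraries 1, 2 and 3. All 3 congested IRI libraries were below all 3 IRI libraries, and the log2 difference was -0.70 ± 0.25 (SE) with adjusted p = 0.933 in edgeR. Klf7 had 12.2, 13.0 and 11.6 CPM in congested IRI libraries 1, 2 and 3, against 7.72, 5.21 and 9.18 CPM in IRI libraries 1, 2 and 3. Its congested IRI libraries were all above its IRI libraries, and the log2 difference was 0.74 ± 0.27 (SE) with adjusted p = 0.933 in edgeR. Klf7 was thus 1 of 8 tested paralogs fully above, and Klf2 1 of 8 fully below, beside 3.42% and 3.07% of all tested genes. Klf6, an early response factor, was the single paralog of 8 called between numbers (edgeR, adjusted p = 0.0308), beside 8.01% of all tested genes. It had 197, 99.5 and 54.9 CPM in congested IRI libraries 1, 2 and 3, against 103, 40.9 and 46.7 CPM in IRI libraries 1, 2 and 3. The other tested paralogs had log2 differences of -0.93 for Cited4, -0.12 for Sox12, 0.02 for Cited2 and 0.43 for Klf4. Pax5, Sox8, Sox10, Sox11 and Lhx5 were under the filter, at up to 0.557 CPM.

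**Figure D4:**
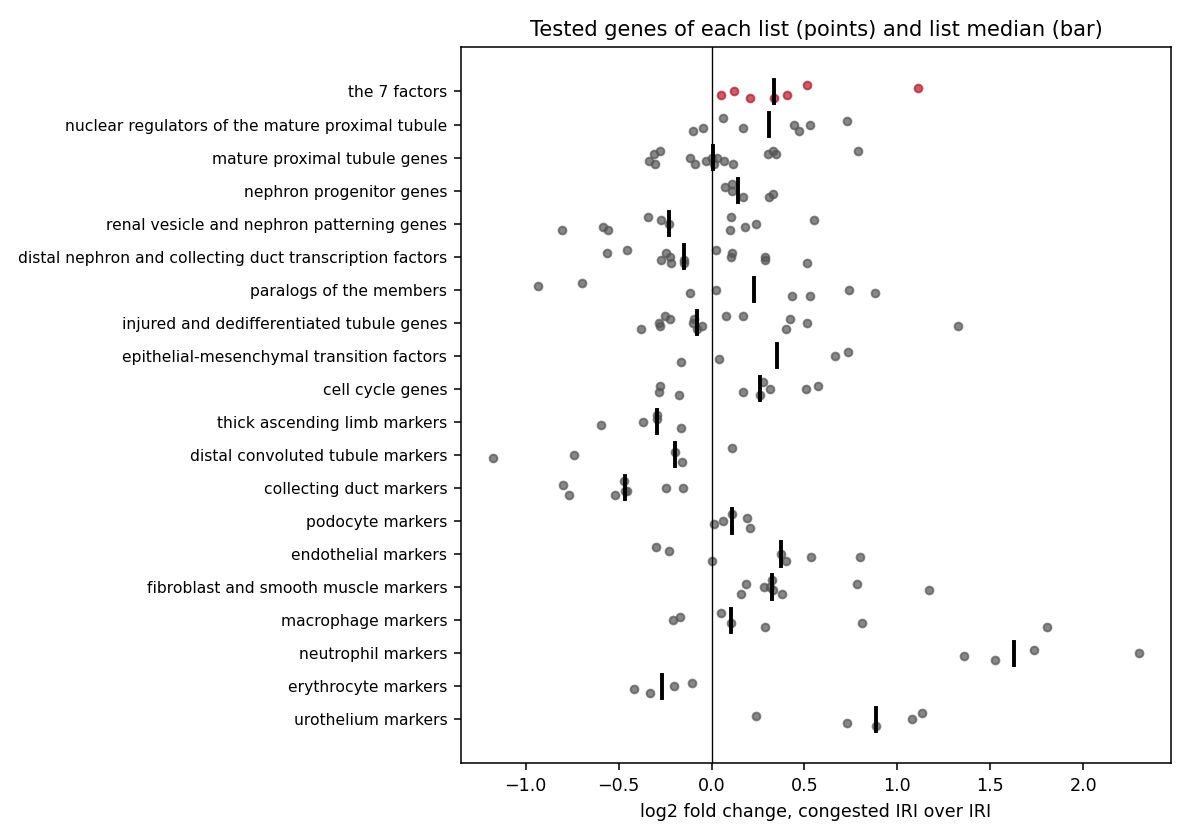
Log2 fold change, congested IRI over IRI, of each tested gene (points) and the median (bars) for the 7 regulators at the top and for each gene list. The 7 regulators lie between 0.05 and 1.11 with a median of 0.33, the neutrophil markers have the highest median at 1.63 and the collecting duct markers the lowest at -0.47.

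Of 5 factors of epithelial-mesenchymal transition, 4 were tested, 3 had a log2 difference above 0 and the median was 0.35. Zeb2 had a log2 difference of 0.74 (edgeR, adjusted p = 0.933), and as for Sox4 congested IRI library 3 lay within the IRI range. Zeb1 differed by 0.66 on the log2 scale (edgeR, adjusted p = 0.933). Its congested IRI libraries were all above its IRI libraries, which held for 3.42% of all tested genes. Of 9 cell cycle genes, 6 were above 0, with a median of 0.26 that was -0.87 without congested IRI library 2 and -0.07 without IRI library 1 or IRI library 3. Mcm2 differed by 0.32 and Pcna by -0.28 on the log2 scale. Of the 9, 5 were called between numbers, beside 8.01% of all tested genes. Ccna2 (edgeR, adjusted p = 0.00980) and Mki67 (adjusted p = 0.0133) were highest in the libraries numbered 2.

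Markers of the cell types that cortex can hold were measured in the same fit, with 0 called between congested IRI and IRI in any list. All 5 podocyte, 9 fibroblast and smooth muscle, 5 urothelium and 4 tested neutrophil markers had a log2 difference above 0, with medians of 0.11 for podocytes, 0.33 for fibroblasts and smooth muscle, 0.88 for urothelium and 1.63 for neutrophils. Of the tested genes, 5 of 7 endothelial and 5 of 7 macrophage markers were above 0, with medians of 0.37 for endothelium and 0.11 for macrophages. All 3 congested IRI libraries lay above all 3 IRI libraries for 3 of the 7 endothelial and 0 of the 7 macrophage markers. That held for 3.42% of all tested genes. In both lists 0 markers separated the other way. All 5 thick ascending limb, 8 collecting duct and 4 erythrocyte markers were below 0, with medians of -0.29 for thick ascending limb, -0.47 for collecting duct and -0.27 for erythrocytes. For the distal convoluted tubule 1 of 5 was above 0, with a median of -0.20. Single libraries turned several of these medians. Without congested IRI library 1 the neutrophil median was -0.46, the macrophage median -0.03 and the distal convoluted tubule median 0.02. Without congested IRI library 2 the urothelium median was -1.62, and with the replicate block it was -0.32. Without IRI library 3 the thick ascending limb median was 0.02, without IRI library 2 the distal convoluted tubule median was 0.05, and with the length and GC trend removed the erythrocyte median was 0.20. By the smallest unadjusted p the leading genes were Acta2 (log2 difference 1.17), Eng (0.54), Cdh5 (0.80), Pecam1 (0.40) and Fxyd4 (-0.80).

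For each tested regulator the 3 genes with the most similar profile were found by the root mean square difference of mean-centred log2 CPM over the 6 libraries, among all tested genes. The distances rest on 6 points each and are a description. The nearest to Sox4 was Ptprc, the pan-leukocyte gene for CD45, at a distance of 0.086 on the log2 scale, followed by C5ar1 at 0.17 and Clec7a at 0.18, both receptors of myeloid cells. Ptprc had 19.5, 9.66 and 4.94 CPM in congested IRI libraries 1, 2 and 3, against 5.73, 4.87 and 5.83 CPM in IRI libraries 1, 2 and 3. Like Sox4, it was high in congested IRI libraries 1 and 2 only.

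**Figure D5:**
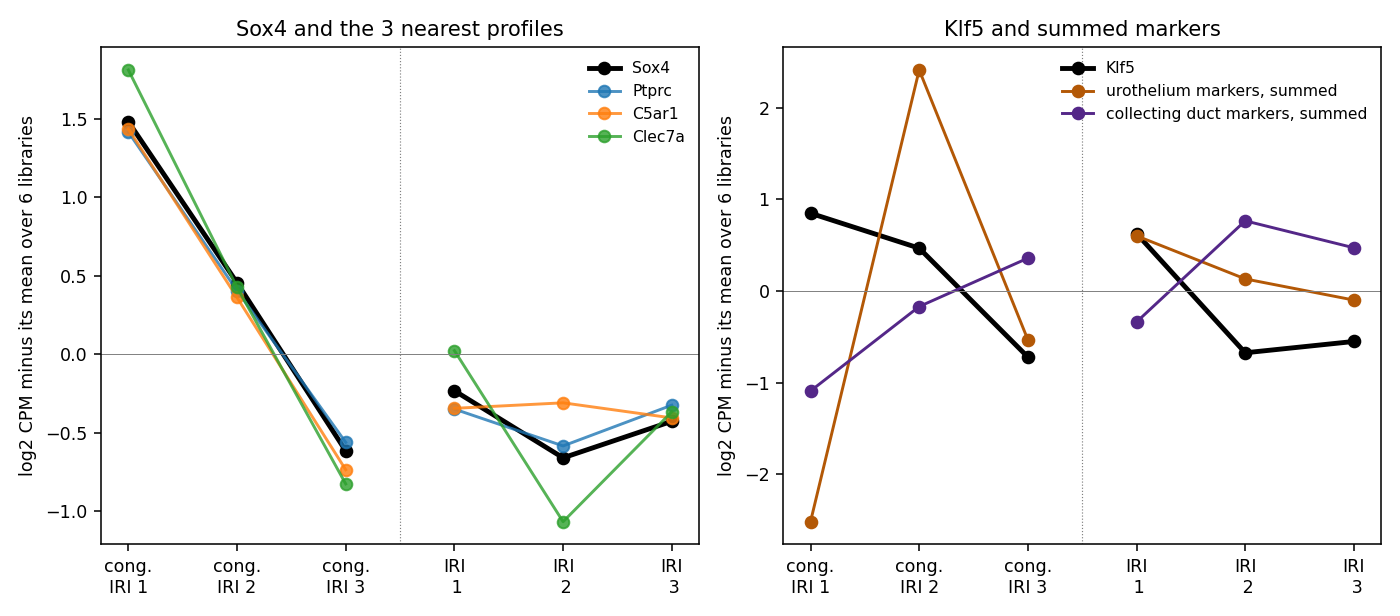
Log2 CPM minus its mean over the 6 libraries, with congested IRI libraries on the left of each panel and IRI libraries on the right. The left panel shows Sox4 with its 3 nearest genes, all of which peak in congested IRI library 1. The right panel shows Klf5 with the summed urothelium and collecting duct markers, of which the urothelium sum peaks in congested IRI library 2. Lines only join the points of a profile.

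Near Sox9 by the same measure were Gsta13 at 0.37 and Fgb, a fibrinogen chain, at 0.43. Fgb had 325, 63.1 and 16.9 CPM in congested IRI libraries 1, 2 and 3, against 316, 29.5 and 25.0 CPM in IRI libraries 1, 2 and 3, and like Sox9 it was highest in the libraries numbered 1. Gsta13 belongs to a family of near-identical genes, so its counts are uncertain. The other regulators had closer neighbours in these units, but the distance is not scaled to how much a gene itself varies. The root mean square of the mean-centred log2 CPM was 1.87 for Sox9, 0.64 for Klf5 and 0.19 for Pax8. The distances therefore do not rank how alike the profiles are between regulators. Hnf4a was nearest to Plcg1 (0.025), Atp6v0a4 (0.032) and Rtkn (0.040), and Lhx1 to Lmtk2 (0.046), Invs (0.053) and Dnajc13 (0.054). Pax8 was nearest to Il17rb (0.054), Hlcs (0.056) and Pan2 (0.059), and Pax2 to 4732471J01Rik (0.083), Veph1 (0.087) and Dchs1 (0.10). Klf5 was nearest to Tmem263, Ppfia4 and Uchl1, at 0.14, 0.14 and 0.15.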

How the data were processed

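Total RNA from kidney cortex was sequenced after a stranded preparation for polyadenylated RNA, per the labels' protocols. The deposited table gives raw, whole-number read counts for each gene in each sample, as the values show. Per the submitters' processing notes, the tools were STAR 2.7.10a, featureCounts and Subread and the build GRCm38, with no roles given. The sources used here do not give aligner settings, annotation or strand setting.

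Counts were tested with edgeR 4.0.16 (R 4.3.3, quasi-likelihood, robust, TMM) in all 6 libraries with group as the term, after a filter of 10 counts and a total of 15 (filterByExpr). The threshold for a call was an adjusted p of 0.05. Intervals are 95%. The 20 duplicated symbols were kept apart. Scripts were tested on simulated data. Alternatives were DESeq2 1.42.0, limma-voom 3.58.1, other scaling and filters, the replicate block, a per-library length and GC trend removed (mgcv 1.9.3, basis 6) and each library left out. Gene models came from GENCODE vM21 and promoter windows from RefSeq GRCm38.p6, matched by symbol for 6 of the 8.

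Within groups, replicates differed beyond sampling noise (chi-square per degree of freedom 17.2 to 175). Deviations from group means correlated at 0.724, 0.342 and 0.429 between same-numbered libraries, each above 0.1. The numbers were therefore taken to pair the libraries in the block and the same-numbered comparisons, although the labels do not say so. The main test between the groups had group as its only term and used no pairing. Congested IRI library 3 and IRI library 2 correlated at 0.401, above the 0.342 of the libraries numbered 2. Congested IRI library 2 and IRI library 3 correlated at 0.249. The correlations thus set number 1 apart but do not clearly tell numbers 2 and 3 from each other. The block and the same-numbered pairs rest on this pairing, which was drawn from the same expression values.

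The regulators and lists were chosen with earlier results of these data known. Named were all 8, every paralog, the 2 genes of a list with the smallest p between groups, or between numbers where called, and the 3 nearest profiles; the cell type lists are given by their counts, medians and a few of these genes. A few genes that this rule names are not reported here.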

Additional observations from a re-analysis of the deposited data

How the results depend on the processing

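No regulator was called between congested IRI and IRI under any alternative run. Of 119 log2 differences of the 7 under alternatives, 6 changed sign, 4 of Pax2 and 2 of Sox9. Without number 1 in both groups Pax2 was at -0.049, and with single libraries left out Pax2 ran from -0.28 to 0.62, Sox9 from -1.18 to 2.92, Hnf4a from 0.056 to 0.46, Pax8 from 0.03 to 0.28, Lhx1 from 0.055 to 0.83, Klf5 from 0.06 to 0.95 and Sox4 from 0.44 to 1.49; with fewer samples each library weighs more. The replicate block changed no call of a regulator; DESeq2 with the replicate block called 8 genes, against 0 in edgeR, and the cause was not tested.

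The count of genes called between numbers was 1144, against 3231 with no filter, 1863 in DESeq2, 2168 with the length and GC trend removed, 159 without number 1 in both groups and 854 to 7841 with single libraries left out. The regulators called numbered 5 with no filter, 1 without number 1 in both groups and 2 to 7 with single libraries left out; the fits without a library keep a single residual degree of freedom, and the other causes were not tested. Scaling by total counts moved the median of all genes to 0.095 and the Sox4 difference to 1.19. Of the list medians, 17 moved by more than the list's own spread (SD) between pairs and 306 did not. Medians that changed sign are among the 306. For urothelium that spread was 2.76, so a shift from 0.88 to -1.62 without congested IRI library 2 did not count as a move. Among the 8 regulators, Cited1 alone fell under the filter on low counts.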

Other observations

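The long noncoding genes Hnf4aos and Lhx1os, named for Hnf4a and Lhx1, were also counted. Hnf4aos, at 163493807 to 163541720 on chromosome 2, overlaps the Hnf4a gene on the opposite strand, across its upstream start. Hnf4aos had 1.35, 5.71 and 9.65 CPM in congested IRI libraries 1, 2 and 3, against 4.93, 14.5 and 7.33 CPM in IRI libraries 1, 2 and 3. Its highest level was in IRI library 2 and its lowest in congested IRI library 1, and the groups overlapped. Lhx1os had 6.46, 9.22 and 8.24 CPM in congested IRI libraries 1, 2 and 3, against 15.4, 16.2 and 8.30 CPM in IRI libraries 1, 2 and 3. Its congested IRI libraries did not separate from IRI library 3, which lay between congested IRI libraries 2 and 3. In the annotation Hnf4aos shares no exon bases with Hnf4a, nor Lhx1os with Lhx1, and both were named here after their values were seen.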
